A study of Homo sapiens with 10 samples.

Results

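A set of 50 genes of mitosis and the mitotic spindle was followed in Kasumi-1 cells that had received 1 of 3 E proteins or an empty vector. The members are a fixed list of gene symbols whose rule uses no level or fold. The list was, however, chosen with earlier results of these data known. All 50 members were found among the 50868 genes of the deposited table. Kasumi-1 is an established human myeloid leukemia line with the translocation t(8;21). The E2-2, E2A and HEB cells were Kasumi-1 cells transduced by retrovirus with E2-2 (gene TCF4), E2A (TCF3) or HEB (TCF12), and the vector cells were transduced with MIGR1 alone. All 4 groups carried the translocation and the viral backbone, were labelled as passage 4-5 and were sorted for GFP 4 days after infection. Each group is 1 RNA library of 1 cell line, so there is no replicate and no test across samples, and a statement about E2-2 cells is one about that library. ChIP-seq of the HA tag was done on cells sorted at 3 days and is not analysed here.

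Mitosis is run by the kinase CDK1 with its cyclins, which opens the division programme, and by the anaphase-promoting complex, a ubiquitin ligase that ends it by marking cyclin B and securin for destruction. Between these events motor proteins build a spindle, kinetochores tie each chromosome to it, and a checkpoint holds the cell until every chromosome is attached. The RNAs of these genes accumulate together late in the cell cycle. In that phase the MuvB protein complex recruits the factors B-MYB (MYBL2) and FOXM1 to their promoters, while in resting cells the same complex joins a pocket protein and holds them low. E proteins are helix-loop-helix factors that bind E-boxes and are best known for directing lymphoid development, where they often restrain cell division.

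Promoters are shown first, since many of the members share short elements there. RefSeq windows of GRCh38.p14, 250 bases before to 50 bases after a gene's first listed start, were held for 43 of the 50 members. The members with no window in that table were AURKA, BIRC5, BUB3, FOXM1, TPX2, TTK and UBE2C. The 6 windows below belong to MKI67 and MYBL2, which had the largest differences, to ESPL1, which was close behind them, to CCNB2 and PLK1 with smaller ones, and to SPC24, whose interval against vector excluded 1 in E2-2 alone. Capitals mark 3 motifs, searched on both strands: CCAAT, the box that the factor NF-Y binds, TTTGAA, the core of the element that MuvB binds, and TTTAAA, a variant of that core. Each window reads 5′ to 3′ along the gene.
MKI67, chr10:128126374-128126673, minus strand: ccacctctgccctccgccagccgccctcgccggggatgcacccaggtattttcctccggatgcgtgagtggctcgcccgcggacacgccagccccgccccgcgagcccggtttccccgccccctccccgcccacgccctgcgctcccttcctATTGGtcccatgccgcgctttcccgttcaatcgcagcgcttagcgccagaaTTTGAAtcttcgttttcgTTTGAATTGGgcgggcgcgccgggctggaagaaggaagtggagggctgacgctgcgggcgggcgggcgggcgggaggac
MYBL2, chr20:43666864-43667163, plus strand: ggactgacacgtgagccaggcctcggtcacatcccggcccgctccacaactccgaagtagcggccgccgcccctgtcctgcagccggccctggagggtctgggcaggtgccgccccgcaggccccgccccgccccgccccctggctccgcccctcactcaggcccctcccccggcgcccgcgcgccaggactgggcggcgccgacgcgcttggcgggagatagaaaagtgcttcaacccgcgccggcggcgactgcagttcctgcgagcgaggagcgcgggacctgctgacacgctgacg
CCNB2, chr15:59104896-59105195, plus strand: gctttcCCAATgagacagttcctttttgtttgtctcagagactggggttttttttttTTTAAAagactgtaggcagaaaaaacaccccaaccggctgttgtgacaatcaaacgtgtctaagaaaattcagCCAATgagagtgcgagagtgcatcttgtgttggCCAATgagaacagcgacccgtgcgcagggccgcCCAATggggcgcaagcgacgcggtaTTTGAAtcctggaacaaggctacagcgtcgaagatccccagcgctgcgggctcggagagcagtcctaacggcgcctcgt
ESPL1, chr12:53268049-53268348, plus strand: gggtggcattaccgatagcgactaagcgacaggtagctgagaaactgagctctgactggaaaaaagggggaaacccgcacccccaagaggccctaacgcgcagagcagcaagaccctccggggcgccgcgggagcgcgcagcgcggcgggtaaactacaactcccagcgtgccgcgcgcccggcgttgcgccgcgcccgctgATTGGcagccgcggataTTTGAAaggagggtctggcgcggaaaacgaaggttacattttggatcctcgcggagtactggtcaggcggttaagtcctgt
PLK1, chr16:23678639-23678938, plus strand: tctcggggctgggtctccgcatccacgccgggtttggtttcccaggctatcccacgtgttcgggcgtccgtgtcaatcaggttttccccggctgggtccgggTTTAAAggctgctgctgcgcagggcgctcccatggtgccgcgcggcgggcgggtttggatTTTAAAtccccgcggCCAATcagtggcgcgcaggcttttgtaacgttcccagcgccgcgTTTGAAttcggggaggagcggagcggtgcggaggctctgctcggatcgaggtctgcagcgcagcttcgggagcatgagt
SPC24, chr19:11155733-11156032, minus strand: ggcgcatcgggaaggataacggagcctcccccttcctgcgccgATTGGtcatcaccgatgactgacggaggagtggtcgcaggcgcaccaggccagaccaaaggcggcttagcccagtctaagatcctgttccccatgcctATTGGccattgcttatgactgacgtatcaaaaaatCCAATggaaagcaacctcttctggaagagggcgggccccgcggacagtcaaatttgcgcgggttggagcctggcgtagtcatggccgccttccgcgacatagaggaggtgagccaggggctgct

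In these windows, MKI67 held TTTGAA with its first base 47 and again 29 bases before the start, and an opposite-strand CCAAT at 98 and at 24 bases. CCNB2 held a CCAAT at 244, 120, 87 and 54 bases before the start and TTTGAA at 29 bases, and PLK1 held a CCAAT at 73 and TTTGAA at 29 bases. ESPL1 held 1 of each, at 48 and 31 bases. SPC24 held 3 CCAAT boxes and no TTTGAA, and MYBL2 held neither. The MYBL2 window held the E-box CAGGTG at 147 bases before the start.

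TTTGAA was present in 30 of the 43 member windows (69.8%), against 15.4% of the 27305 genes with a window and 9.59% of the 9439 of these that were measured in E2-2 or vector cells. CCAAT was likewise present in 30 windows (69.8%), against 35.7% of all genes and 36.8% of measured genes. Both motifs stood together in 22 windows (51.2%), against 6.08% of all and 3.98% of measured genes. Starting no more than 60 bases before the start, or after it, TTTGAA on the gene's own strand was in 20 windows (46.5%), against 2.63% of all and 1.80% of measured genes, a limit chosen after the windows were read. TTTAAA was in 15 windows (34.9%), against 12.3% of all and 7.52% of measured genes. Either TTTGAA or TTCGAA, which overlap in definition with the first search, was in 31 windows (72.1%), against 16.6% of all and 11.1% of measured genes. Sites of the E2F type, searched as TTTCCCGC, TTTCGCGC, TTTGCCGC and TTTGGCGC, were in 4 windows (9.30%), against 3.33% of all and 5.32% of measured genes. The general E-box CANNTG, which contains the next 2 motifs, was in 23 windows (53.5%), against 68.9% of all and 59.9% of measured genes. CAGGTG was in 7 windows (16.3%), against 20.6% of all and 18.3% of measured genes, and CAGCTG in 3 windows (6.98%), against 17.7% of all and 16.9% of measured genes. These are matches of letters and say nothing of what is bound there.

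The libraries held 14816708 counted reads for E2-2, 17673090 for E2A, 16791922 for HEB and 15728974 for vector cells. Levels are counts per 1000000 reads (CPM) on TMM-scaled library sizes, and each fold carries a 95% exact interval for counting error. Folds compare 1 gene between libraries. Where genes are set beside each other, as in shares of a sum or reads of overlapping genes, gene length is not corrected for. A gene was tested when the 2 libraries held at least 30 of its reads, and called at 2-fold or at 1.5-fold when its fold reached that size and its interval excluded 1. TCF4 stood at 823 CPM in E2-2, TCF3 at 1312 CPM in E2A and TCF12 at 836 CPM in HEB cells, each the highest of the 4 libraries, against 0.256, 252 and 165 CPM for these genes in vector cells. All 9 blast markers checked, KIT, CD34 and RUNX1T1 among them, had reads in every library, with a summed level of 12853 CPM in E2-2, 14934 in E2A and 19797 in HEB, against 16713 CPM in vector cells. Most of that sum was MPO, the myeloperoxidase gene, with 11254 CPM in E2-2, 13171 in E2A and 18014 in HEB, against 14862 CPM in vector cells. CD33, a myeloid surface antigen, was called higher in all 3 comparisons, with 115 CPM in E2-2, 85.7 in E2A and 90 in HEB, against 28.3 CPM in vector cells, a ratio of 4.08 in E2-2, 3.03 in E2A and 3.18 in HEB. CD34, a progenitor antigen, was lower, with 166 CPM in E2-2, 149 in E2A and 130 in HEB, against 253 CPM in vector cells. The 8 lymphoid markers summed to 11.9 to 14.8 CPM, with MS4A1 and CD2 at 0 in E2A and vector cells and MS4A1 at 0 in HEB cells. Most of that sum was CD79B, with 8.97 to 11.9 CPM. CD3D, a T cell receptor subunit, was called lower in all 3 comparisons, with 2 reads in E2-2, 10 in E2A and 15 in HEB, against 34 in vector cells. NKG7, a cytotoxic cell gene, had 22 reads in E2-2, 14 in E2A and 10 in HEB, against 4 in vector cells, under the read minimum in each pair with vector. Against HEB it passed the minimum and was called higher at 2-fold in E2-2, at a log2 fold of 1.26. The 10 epithelial, fibroblast or packaging cell markers summed to 43.8 to 58.0 CPM, with CDH1 and DCN at 0 in vector cells. The part of these marker levels in the results below was not tested.

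Members were well covered. Their reads in a library ran from 363, for SPC24 in vector cells, to 20581, for MKI67 in E2-2 cells, with a median of 2304. All 50 members passed the read minimum in every comparison. Together they took 1.203% of counted reads in E2-2 (95% exact interval 1.198 to 1.209), 0.987% in E2A (0.983 to 0.992) and 0.896% in HEB (0.892 to 0.901), against 0.745% in vector cells (0.741 to 0.749). Summed, they stood at 11758 CPM in E2-2, 9875 in E2A and 9096 in HEB, against 7512 CPM in vector cells. MKI67 and TOP2A supplied 21.5%, 21.1% and 19.8% of these reads in E2-2, E2A and HEB cells and 17.8% in vector cells. In bulk RNA, a larger share of cells that hold these RNAs and more of these RNAs per such cell cannot be told apart.

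All 50 members were higher in E2-2 than in vector cells, by 1.02-fold to 2.11-fold; with upper quartile scaling BUB3 was the exception. Of all 13884 tested genes, 46.9% were higher by any amount. The members' median log2 fold was 0.56, a 1.47-fold difference, against -0.03 over all tested genes. At 1.5-fold, 24 members were called higher and 0 lower, where 13.5% of all tested genes were called higher and 9.43% lower. At 2-fold, the called members were MYBL2 and MKI67, 2 of 50, where 8.45% of all genes were called higher and 3.55% lower. The interval lay wholly above 1 for 49 members, BUB3 excepted, where it did so for 27.3% of all genes. Members have more reads than most genes, with a median of 4444 reads in these 2 libraries against 775. Among the 6095 genes with at least 1000 reads, 31.6% had such an interval, 43.8% were higher by any amount, 8.86% were called at 1.5-fold and 4.15% at 2-fold. Of the members, 48 had that many reads, with 24 called at 1.5-fold and 2 at 2-fold.

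**Figure D1:**
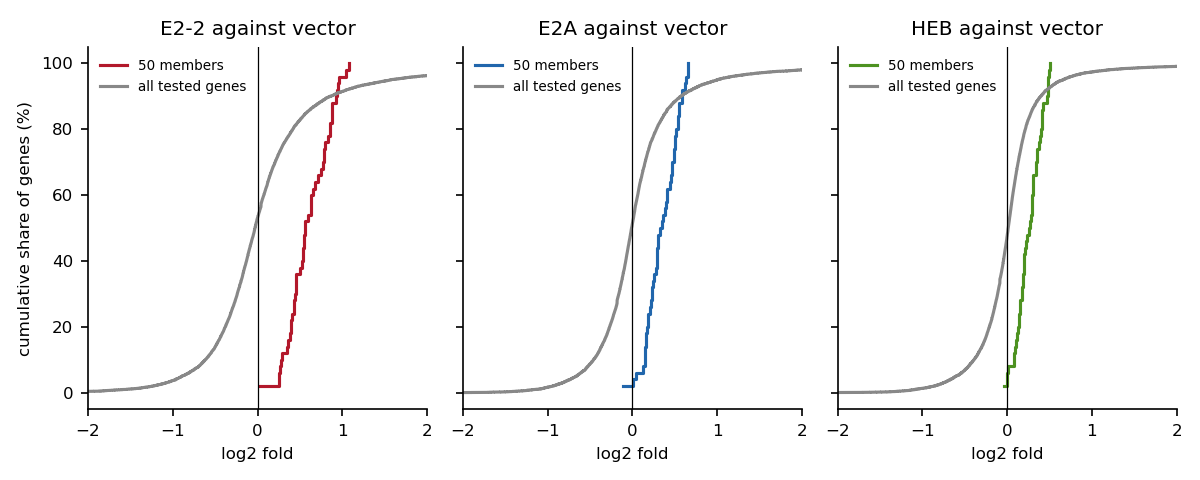
Cumulative share of genes (vertical axis, in %) by log2 fold against vector (horizontal axis), for the 50 members in colour and all tested genes in grey, in E2-2, E2A and HEB. The members' curves start near 0 and lie to the right of the grey curves at their middle, at a median of 0.56 in E2-2, 0.33 in E2A and 0.26 in HEB, while the grey curves reach further on both sides.

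E2A and HEB cells showed smaller differences. In E2A, 49 of 50 members were higher than in vector cells, where 48.8% of 13901 tested genes were, with a median log2 fold of 0.33 against -0.01. The exception was SPC24, joined by KIF14 with upper quartile scaling. At 1.5-fold, 6 members were called higher and 0 lower (8.41% and 5.01% of all genes), and at 2-fold no member was called in either direction (4.89% and 1.58%). The 6 were CDK1, CENPE, SPC25, AURKB, TOP2A and MKI67, at 1.5-fold to 1.58-fold. The interval lay above 1 for 47 members, where it did so for 22.7% of all genes. Among the 6310 genes with at least 1000 reads in E2A and vector cells, 27.8% had such an interval. Of these genes, 46.5% were higher by any amount and 3.84% were called higher at 1.5-fold. In HEB, 48 members were higher, where 52.5% of 13695 tested genes were, with a median log2 fold of 0.26 against 0.01. The exceptions were SPC24 and CDC25C, and with other scalings the number higher was 46 to 49, since CDC25C turned higher with DESeq2 size factors, and BUB3 and KIF15 turned lower with total counts, upper quartile factors or FPKM. No member was called in HEB at 1.5-fold (4.80% of all genes higher, 3.73% lower) or at 2-fold (2.55% and 1.23%), but the interval lay above 1 for 44, where it did so for 21.1% of all genes. Among the 6211 genes with at least 1000 reads in HEB and vector cells, 29.1% had such an interval. Of these genes, 55.7% were higher by any amount and 1.75% were called higher at 1.5-fold. The 3 comparisons share the 1 vector library, so they are not separate observations of the vector level.

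**Figure D2:**
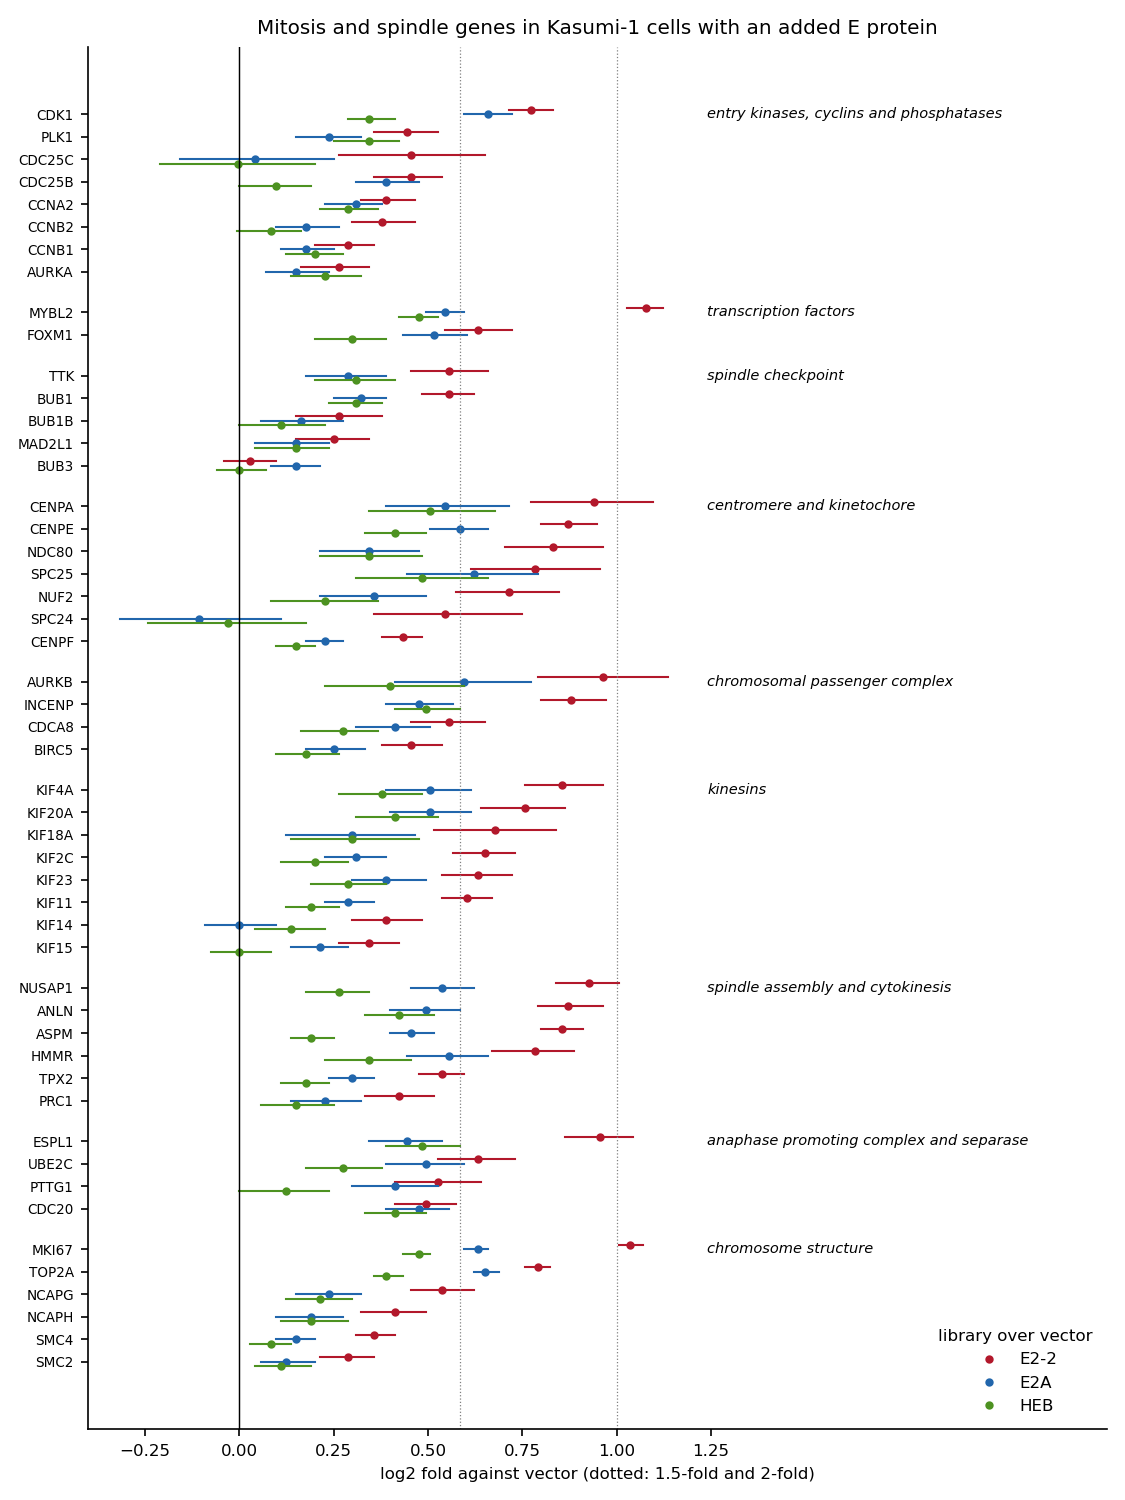
Log2 fold against vector (horizontal axis) of each of the 50 members, grouped by role and sorted within a role by the E2-2 value. Points are E2-2, E2A and HEB, lines are 95% counting intervals, and dotted lines stand at 1.5-fold and 2-fold. MYBL2 and MKI67 in E2-2 lie past the 2-fold line, at 2.11-fold and 2.05-fold, and BUB3 lies near 0 in E2-2 and HEB.

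The levels had a common order. In 49 of 50 members E2-2 cells had the highest level of the 4 libraries, where 31.3% of 15684 genes did, and BUB3 was highest in E2A. In 48 members vector cells had the lowest level, where 29.6% of genes did. In 37 members the order from high to low was E2-2, E2A, HEB and vector, a count whose share over all genes was not computed. Most of the other members had a higher level in HEB than in E2A.

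The counts by role that follow stand beside the 13.5% of all tested genes called higher at 1.5-fold in E2-2, 8.41% in E2A and 4.80% in HEB. Both transcription factors of the mitotic programme were called at 1.5-fold in E2-2. MYBL2, at chromosome 20, 43667019 to 43716496 in the table's coordinates, codes for B-MYB, which works with MuvB late in the cell cycle. It stood at 666 CPM in E2-2, 461 in E2A and 441 in HEB, against 316 CPM in vector cells. E2-2 cells had the highest level, E2A and HEB cells lay close together, and all 3 lay above vector cells. The fold against vector was 2.11 (2.04 to 2.18) in E2-2, 1.46 (1.41 to 1.51) in E2A and 1.39 (1.34 to 1.44) in HEB. FOXM1, the forkhead factor that acts after B-MYB, stood at 168 CPM in E2-2, 155 in E2A and 133 in HEB, against 108 CPM in vector cells. Its folds were 1.55 (1.46 to 1.65) in E2-2, 1.43 (1.35 to 1.52) in E2A and 1.23 (1.15 to 1.31) in HEB, in steps from E2-2 to HEB.

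**Figure D3:**
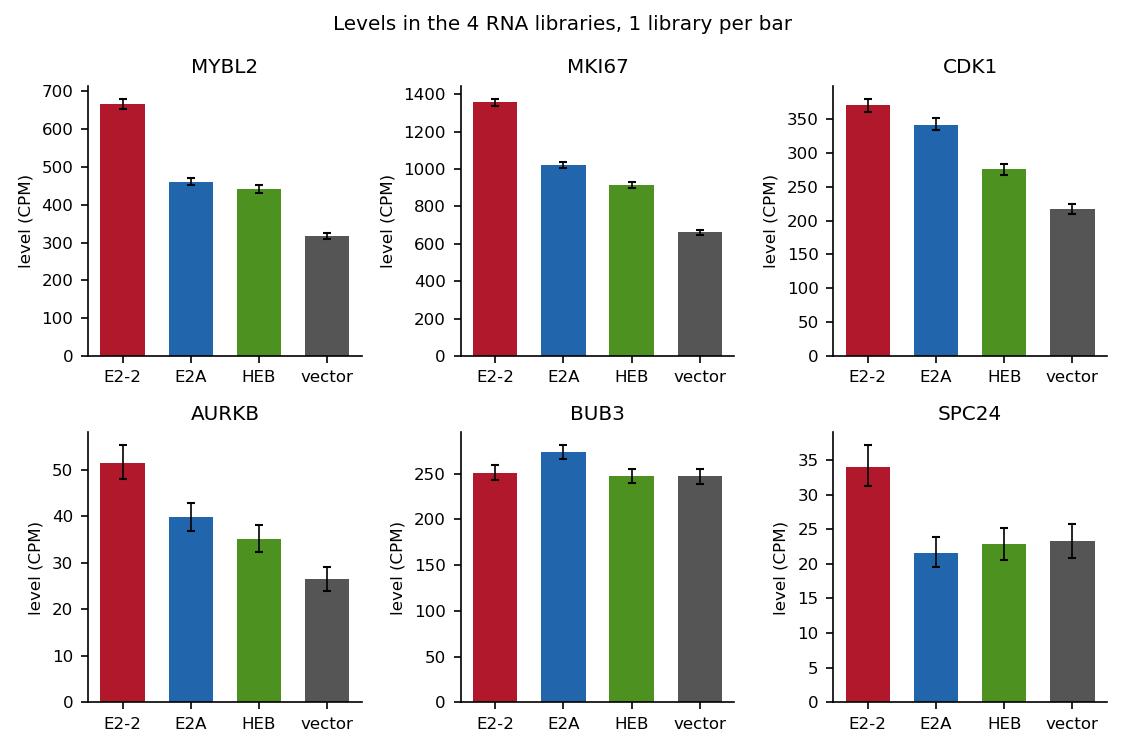
Level in CPM (vertical axis, from 0) of MYBL2, MKI67, CDK1, AURKB, BUB3 and SPC24 in E2-2, E2A, HEB and vector cells, 1 library per bar, with 95% counting intervals. MYBL2 stands at 666 CPM in E2-2 and 316 CPM in vector cells and AURKB steps down from bar to bar, while BUB3 stays between 247 and 274 CPM and SPC24 is higher in E2-2 only, at 34.0 CPM.

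Among the 8 entry kinases, cyclins and phosphatases, 1 (12.5%) was called at 1.5-fold in E2-2, near the 13.5% of all tested genes, and the median log2 fold was 0.42. That member was CDK1, the kinase at the centre of mitosis. It stood at 371 CPM in E2-2, 342 in E2A and 276 in HEB, against 217 CPM in vector cells. Its folds against vector were 1.71 (1.64 to 1.78) in E2-2, 1.58 (1.51 to 1.65) in E2A and 1.27 (1.22 to 1.33) in HEB, the largest of this group in each library. Its partner cyclins differed less. CCNA2, CCNB1 and CCNB2, the genes of cyclins A2, B1 and B2, were at 1.31-fold, 1.22-fold and 1.30-fold in E2-2. CDC25B and CDC25C, the phosphatases that activate CDK1, were each at 1.37-fold in E2-2, and PLK1, a kinase of mitotic entry and centrosome maturation, at 1.36-fold. AURKA, the centrosomal Aurora kinase, had the lowest E2-2 fold of the group, where CDC25C was lowest in E2A and HEB. It had 142 CPM in E2-2, 132 in E2A and 139 in HEB, against 118 CPM in vector cells. Its folds were 1.20 (1.12 to 1.27) in E2-2, 1.11 (1.05 to 1.18) in E2A and 1.17 (1.10 to 1.25) in HEB, all with intervals above 1. Compared directly, E2-2 was at 1.07-fold of E2A (1.01 to 1.14) and 1.02-fold of HEB (0.962 to 1.08).

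The spindle checkpoint, which keeps the anaphase-promoting complex off until chromosomes are attached, had the lowest median log2 fold of the roles in E2-2, at 0.27, with 0 of 5 members called at 1.5-fold. TTK, the kinase that starts the signal, stood at 123 CPM in E2-2, 102 in E2A and 104 in HEB, against 83.7 CPM in vector cells. The E2-2 level was highest and the E2A and HEB levels were alike, with folds of 1.47 (1.37 to 1.58) in E2-2, 1.22 (1.13 to 1.31) in E2A and 1.24 (1.15 to 1.33) in HEB. BUB1, a kinase at the kinetochore, was also at 1.47-fold in E2-2, while BUB1B (BubR1) and MAD2L1 (MAD2), which form the inhibitor, were at 1.20-fold and 1.19-fold. BUB3 had the lowest E2-2 fold of all members, with 251 CPM in E2-2, 274 in E2A and 247 in HEB, against 247 CPM in vector cells. Its folds were 1.02 (0.973 to 1.07) in E2-2, 1.11 (1.06 to 1.16) in E2A and 1.00 (0.959 to 1.05) in HEB, so the E2A level was above vector and the other 2 could not be told from it by counting error.

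Of the 7 centromere and kinetochore genes, 5 were called at 1.5-fold in E2-2 (median log2 fold 0.78) and 2 in E2A (0.36). CENPA, the histone variant that marks the centromere, stood at 60.5 CPM in E2-2, 46.3 in E2A and 44.9 in HEB, against 31.6 CPM in vector cells, and its folds were 1.92 (1.71 to 2.14) in E2-2, 1.46 (1.31 to 1.64) in E2A and 1.42 (1.27 to 1.60) in HEB. CENPE, a kinesin of the kinetochore, was at 1.83-fold in E2-2. CENPF, a large protein of the outer kinetochore, had the lowest E2-2 fold of the group, where SPC24 was lowest in E2A and HEB. It had 466 CPM in E2-2, 404 in E2A and 384 in HEB, against 346 CPM in vector cells. Its folds were 1.35 (1.30 to 1.40) in E2-2, 1.17 (1.13 to 1.21) in E2A and 1.11 (1.07 to 1.15) in HEB, each library a step above the next.

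The NDC80 complex, the 4-protein rod that grips microtubules, had unequal differences among its genes. NDC80, NUF2 and SPC25 were at 1.78-fold (1.63 to 1.95), 1.64-fold (1.49 to 1.80) and 1.72-fold (1.53 to 1.94) in E2-2, and at 1.27-fold, 1.28-fold and 1.54-fold in E2A. SPC24 stood at 34.0 CPM in E2-2, 21.6 in E2A and 22.8 in HEB, against 23.3 CPM in vector cells. The E2-2 ratio to vector was 1.46 (1.28 to 1.68). The E2A ratio was 0.929 (0.803 to 1.08) and the HEB ratio 0.979 (0.845 to 1.13), both intervals holding 1. SPC24 is among the members whose counting is uncertain because another gene overlaps them, as given with those members. Over the 4 libraries the overlapping gene held 4528 reads, against 1638 for SPC24.

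The chromosomal passenger complex, in which INCENP, survivin (BIRC5) and borealin (CDCA8) carry Aurora B kinase (AURKB) to the centromere, was divided in its differences. AURKB stood at 51.4 CPM in E2-2, 39.8 in E2A and 35.0 in HEB, against 26.4 CPM in vector cells, with folds of 1.95 (1.73 to 2.20) in E2-2, 1.51 (1.33 to 1.71) in E2A and 1.32 (1.17 to 1.51) in HEB. INCENP was at 1.84-fold (1.74 to 1.96) in E2-2. BIRC5 had the lowest fold, with 204 CPM in E2-2, 177 in E2A and 168 in HEB, against 149 CPM in vector cells, and folds of 1.37 (1.30 to 1.45) in E2-2, 1.19 (1.13 to 1.26) in E2A and 1.13 (1.07 to 1.20) in HEB. CDCA8 was at 1.47-fold (1.37 to 1.57) in E2-2. The kinase and its scaffold thus had E2-2 intervals above those of the other 2 subunits.

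Of the 8 kinesins, 6 were called at 1.5-fold in E2-2 (median log2 fold 0.64) and 0 in E2A (0.30) or HEB (0.24). KIF4A, a chromosome-bound motor, stood at 133 CPM in E2-2, 104 in E2A and 95.2 in HEB, against 73.2 CPM in vector cells, with folds of 1.81 (1.69 to 1.95) in E2-2, 1.42 (1.31 to 1.53) in E2A and 1.30 (1.20 to 1.40) in HEB. KIF20A and KIF23, motors of the central spindle, were at 1.69-fold and 1.55-fold in E2-2. KIF18A and KIF2C, which shorten microtubules, were at 1.60-fold and 1.57-fold, and KIF11 (Eg5), which pushes the spindle poles apart, at 1.52-fold. KIF14, a motor of cytokinesis, was at 1.31-fold in E2-2 and 1.00-fold (0.938 to 1.07) in E2A. KIF15, which works beside KIF11, had the lowest fold in E2-2 and HEB, with 203 CPM in E2-2, 185 in E2A and 160 in HEB, against 160 CPM in vector cells. Its folds were 1.27 (1.20 to 1.34) in E2-2, 1.16 (1.10 to 1.22) in E2A and 1.00 (0.950 to 1.06) in HEB, with HEB and vector cells at the same level.

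Spindle assembly and cytokinesis genes had a median log2 fold of 0.82 in E2-2, 0.47 in E2A and 0.23 in HEB, and 4 of 6 were called at 1.5-fold in E2-2. NUSAP1, which bundles spindle microtubules, stood at 224 CPM in E2-2, 171 in E2A and 141 in HEB, against 118 CPM in vector cells, with folds of 1.90 (1.79 to 2.01) in E2-2, 1.45 (1.37 to 1.54) in E2A and 1.20 (1.13 to 1.27) in HEB. ANLN, the cleavage furrow protein anillin, ASPM, a spindle pole protein, and HMMR, a spindle protein also known as a hyaluronan receptor, were at 1.83-fold, 1.81-fold and 1.72-fold in E2-2. TPX2, the activator of Aurora A, was at 1.45-fold. PRC1, which crosslinks the central spindle, had the lowest fold, with 146 CPM in E2-2, 127 in E2A and 121 in HEB, against 108 CPM in vector cells, and folds of 1.34 (1.26 to 1.43) in E2-2, 1.17 (1.10 to 1.25) in E2A and 1.11 (1.04 to 1.19) in HEB.

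Of the 4 genes that act at the anaphase-promoting complex and on cohesin, 2 were called at 1.5-fold in E2-2. ESPL1, which codes for separase, the protease that cuts cohesin, stood at 188 CPM in E2-2, 132 in E2A and 136 in HEB, against 97.3 CPM in vector cells, with folds of 1.94 (1.82 to 2.06) in E2-2, 1.36 (1.27 to 1.45) in E2A and 1.40 (1.31 to 1.5) in HEB. Its inhibitor securin (PTTG1) was at 1.44-fold (1.33 to 1.56) in E2-2. CDC20, the activator of the complex, had the lowest fold in E2-2, where PTTG1 was lowest in E2A and HEB. It had 188 CPM in E2-2, 184 in E2A and 177 in HEB, against 133 CPM in vector cells, and folds of 1.41 (1.33 to 1.49) in E2-2, 1.39 (1.31 to 1.47) in E2A and 1.33 (1.26 to 1.41) in HEB. Its 3 E protein libraries lay close together, all above vector cells. UBE2C, the ubiquitin-conjugating enzyme of the complex, was at 1.55-fold in E2-2.

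Of the 6 chromosome structure genes, 2 were called at 1.5-fold in E2-2 and the same 2 in E2A. MKI67, at chromosome 10, 128096659 to 128126385, codes for the proliferation antigen Ki-67, which coats mitotic chromosomes. It stood at 1357 CPM in E2-2, 1022 in E2A and 916 in HEB, against 661 CPM in vector cells, with folds of 2.05 (2.01 to 2.10) in E2-2, 1.55 (1.51 to 1.58) in E2A and 1.39 (1.35 to 1.42) in HEB. TOP2A, the topoisomerase that untangles sister chromatids, was at 1.73-fold (1.69 to 1.77) in E2-2 and 1.57-fold (1.54 to 1.61) in E2A. The condensin genes NCAPG, NCAPH, SMC4 and SMC2 were at 1.45-fold, 1.33-fold, 1.28-fold and 1.22-fold in E2-2. SMC2 had the lowest fold in E2-2 and E2A, where SMC4 was lowest in HEB. It had 226 CPM in E2-2, 203 in E2A and 201 in HEB, against 186 CPM in vector cells, and folds of 1.22 (1.16 to 1.28) in E2-2, 1.09 (1.04 to 1.15) in E2A and 1.08 (1.03 to 1.14) in HEB.

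Promoter motifs and folds were next set side by side within the members, as a description. Members with both CCAAT and TTTGAA had a median log2 fold in E2-2 of 0.73, against 0.54 for the other members with a window. In E2A these medians were 0.44 and 0.31, and in HEB 0.32 and 0.20. Members with TTTGAA, whether or not CCAAT was present, had a median of 0.66 in E2-2, against 0.55 without it, and members with CCAAT 0.62, against 0.54. In E2-2, other motifs had gaps too, wider than for CCAAT with TTTGAA only at the E2F type (4 windows) and CAGCTG (3 windows). In E2-2 the medians with and without the motif were 0.85 and 0.55 for the E2F type, 0.83 and 0.57 for CAGCTG, 0.71 and 0.55 for CANNTG and 0.63 and 0.57 for TTTAAA, and CAGGTG went the other way, at 0.45 and 0.62. In E2A the medians with and without the motif were 0.55 and 0.34 for the E2F type and 0.34 and 0.38 for CAGCTG. For CAGGTG in E2A they were 0.18 and 0.40, a wider gap than for CCAAT with TTTGAA. The ranges overlap, since MYBL2, which had the largest fold, holds neither CCAAT nor TTTGAA in its window, and CCNB2, at 1.30-fold, holds both.

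The libraries with an E protein were then compared directly. E2-2 exceeded E2A in 49 of 50 members, where 48.4% of 14066 tested genes were higher by any amount, with a median log2 fold of 0.23 against -0.01. At 1.5-fold, 1 member was called higher and 0 lower (6.91% and 4.15% of all genes). That member was SPC24, at 1.57-fold (1.38 to 1.80), whose counting is uncertain because a gene with more reads overlaps it. Next came MYBL2 at 1.45-fold (1.40 to 1.49) and ESPL1 at 1.42-fold (1.35 to 1.5). BUB3 was at 0.918-fold (0.880 to 0.958), and CDC20 at 1.02-fold (0.967 to 1.07), which turned below 1 with upper quartile scaling.

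E2-2 exceeded HEB in all 50 members, or in 48 with upper quartile scaling, where AURKA and BUB3 turned. Of 13891 tested genes, 47.2% were higher by any amount, and the median log2 fold was 0.35 in the members against -0.03. At 1.5-fold, 3 members were called higher and 0 lower (10.7% and 6.03% of all genes), and 6 were called higher with scaling to total counts. The 3 were NUSAP1 at 1.59-fold (1.51 to 1.67), ASPM at 1.58-fold (1.53 to 1.64) and MYBL2 at 1.51-fold (1.47 to 1.56).

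E2A and HEB had the smallest median difference. Here 39 of 50 members were higher in E2A, where 48.0% of 13944 tested genes were, with a median log2 fold of 0.07 against -0.01, and 0 members were called at 1.5-fold in either direction (5.21% of all genes higher, 2.51% lower). The interval lay above 1 for 25 members and below 1 for 2, where it did so for 18.5% and 21.7% of all genes. CDK1 had the highest ratio at 1.24-fold (1.19 to 1.29). PLK1 at 0.934-fold (0.884 to 0.987) and KIF14 at 0.913-fold (0.856 to 0.973) were lower in E2A, with intervals below 1. The number of members higher in E2A was 38 to 43 across the scalings.

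Other genes of mitosis, taken from lists of known roles, were set beside the members. These lists too were chosen with earlier results of these data known. Of 30 further spindle and cytokinesis genes, all 30 were higher in E2-2 by any amount, where 46.9% of all tested genes were. At 1.5-fold 13 were called (43.3%, against 13.5% of all genes higher) and 4 at 2-fold (8.45% of all genes higher). None was called lower, and the median log2 fold was 0.52. TACC3, a spindle microtubule protein, stood at 546 CPM in E2-2, 420 in E2A and 266 in HEB, against 173 CPM in vector cells, with folds of 3.16 (3.03 to 3.31) in E2-2, 2.43 (2.33 to 2.54) in E2A and 1.54 (1.47 to 1.62) in HEB. CEP55 and RACGAP1, both of cytokinesis, were at 2.31-fold (2.09 to 2.56) and 2.20-fold (2.05 to 2.36) in E2-2, and CKAP2L, a spindle protein, at 2.07-fold (1.91 to 2.24). Of 33 further kinetochore and checkpoint genes, 7 (21.2%) were called higher at 1.5-fold in E2-2 and 0 lower, with a median log2 fold of 0.29. Of 16 further cohesin and condensin genes, 1 (6.25%) was called higher and 0 lower, with a median of 0.31. That share is below the 13.5% of all tested genes. For 17 other genes of the anaphase-promoting complex, none was called higher or lower at 1.5-fold in E2-2, and the median was 0.03. Of all tested genes, 13.5% were called higher and 9.43% lower.

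**Figure D4:**
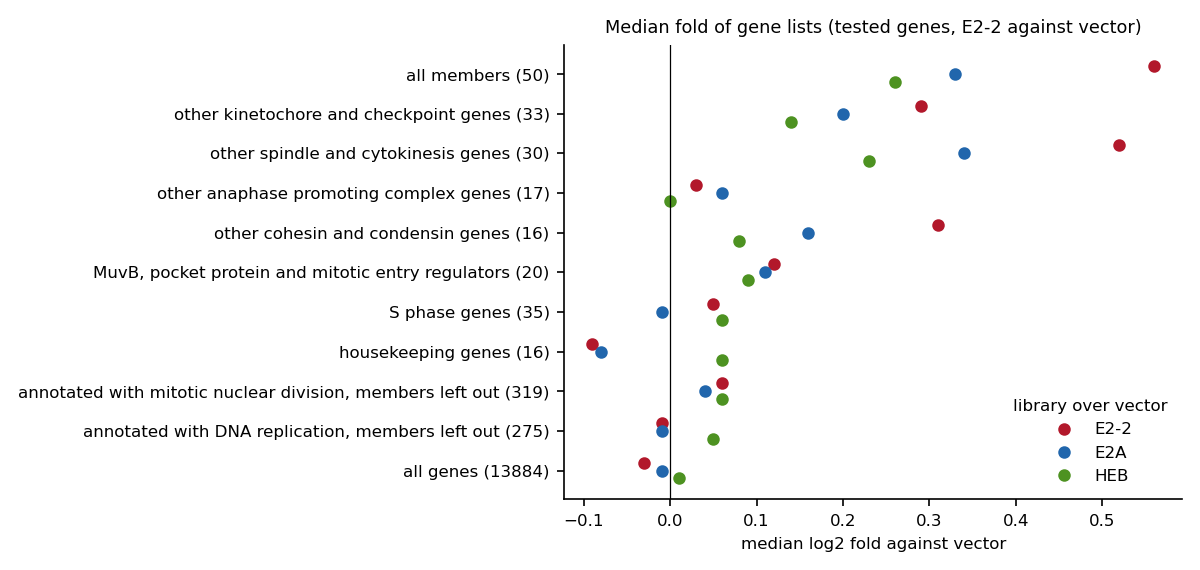
Median log2 fold against vector (horizontal axis) of the members, of further gene lists and of all tested genes, with the number tested in E2-2 against vector in parentheses. Points are E2-2, E2A and HEB. The members and the further spindle and cytokinesis genes lie highest, at 0.56 and 0.52 in E2-2, while S phase genes lie at 0.05.

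Genes of DNA replication, and those annotated with mitosis at large, had medians near 0. Of 35 S phase genes, 4 were called higher at 1.5-fold in E2-2 (11.4%, against 13.5% of all genes) and 0 lower. Their median log2 fold was 0.05 in E2-2, -0.01 in E2A and 0.06 in HEB. By any amount, 19 of the 35 were higher in E2-2 (54.3%, against 46.9% of all genes). The lowest was MCM2, a subunit gene of the replicative helicase, at 0.778-fold (0.75 to 0.808). The 2 called at 2-fold were SLBP, the histone mRNA binding protein, at 2.83-fold (2.70 to 2.98), and the factor gene E2F2, at 2.45-fold (2.27 to 2.65), and SLBP was at 2.71-fold (2.58 to 2.85) in E2A. In a list added after the data were seen, of 319 tested genes that the table annotates with mitotic nuclear division, the members left out, 33 were called higher at 1.5-fold in E2-2 and 7 lower, with a median of 0.06. That is 10.3% called higher, against 13.5% of all genes. Among 275 annotated with DNA replication, 28 were called higher (10.2%, against 13.5% of all genes) and 8 lower, with a median of -0.01. The 16 housekeeping genes had a median of -0.09 in E2-2, -0.08 in E2A and 0.06 in HEB, and none was called.

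Regulators of mitotic entry and of the MuvB and pocket protein complexes had a median log2 fold of 0.12 in E2-2, against -0.03 over all tested genes. At 1.5-fold, 1 of 20 (5%) was called higher, against 13.5% of all tested genes. That gene was CDKN1A, which codes for p21, an inhibitor of cyclin-dependent kinases. It stood at 77.5 CPM in E2-2, 35.6 in E2A and 36.1 in HEB, against 23.3 CPM in vector cells, with folds of 3.33 (2.96 to 3.76) in E2-2, 1.53 (1.34 to 1.75) in E2A and 1.55 (1.36 to 1.77) in HEB. CDKN1B, the gene of the related inhibitor p27, was chosen after its values were seen and stood at 107 CPM in E2-2, 109 in E2A and 108 in HEB, against 135 CPM in vector cells.

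Counting of some members is less certain than their intervals say. The spans of 16 members overlap another gene with at least 30 reads over the 4 libraries, and for 10 of these the neighbour holds over 10% as many reads as the member. These were CCNA2, CDC25C, CENPA, FOXM1, KIF18A, KIF20A, KIF4A, NCAPG, SPC24 and SPC25, and for CDC25C, SPC24 and KIF20A the neighbour holds more reads than the member. Whether counting used the strand is not given in the sources used here, and the part of such reads in the results was not tested. CDC25C, which was flat in HEB at 0.998-fold (0.864 to 1.15) and in E2A at 1.03-fold (0.896 to 1.19), overlaps FAM53C. That neighbour had 1191 reads in E2-2, 1402 in E2A and 1462 in HEB, against 1447 in vector cells, while CDC25C had 502 reads in E2-2, 440 in E2A and 399 in HEB, against 377 in vector cells. KIF20A overlaps BRD8, with 2148 reads in E2-2, 2062 in E2A and 2089 in HEB, against 1962 in vector cells. CENPA overlaps SLC35F6, with 254 reads in E2-2, 279 in E2A and 308 in HEB, against 233 in vector cells. Named copies of 9 members are in the table, and all copies together held 46 reads over the 4 libraries.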

How the data were processed

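RNA-seq measured 1 library each of E2-2, E2A, HEB and vector cells. TRIzol and a TruSeq RNA kit were used, per the labels' protocols. The authors deposited a whole-number read count and an FPKM value per gene and library, per the file headers. HTSeq 0.9.1 and TopHat2 2.0.9 appear, per the submitters' processing notes, beside builds hg19 and hg38, with no role or order. The annotation, and whether strand was used, is not given in the sources used here.

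Counts were scaled over the 4 libraries by TMM with edgeR 4.0.16 in R 4.3.3. Folds carry 95% exact conditional binomial intervals (Clopper-Pearson, scipy 1.17.1 in Python 3.11.15), levels exact Poisson intervals. These cover counting error only, since PCR copies were not separable from molecules and no group has a second library. Calls need a fold of 2 or 1.5, an interval excluding 1 and at least 30 reads in the pair, and describe libraries, not conditions. Folds and intervals were tested on simulated data. Those data held counting error only, which the intervals assume, so they check the calculation and not the spread between cultures. Alternatives were DESeq2 1.42.0 size factors, total counts, upper quartile factors, 1 or 100 reads as the minimum, and FPKM. The members and lists were chosen with earlier results of these data known. Counts of genes higher by any amount, with an interval above 1, or highest in E2-2 or lowest in vector cells, genes with at least 1000 reads, and lists from the table's annotation were added after the data were seen. Values in every library are given for members called at 2-fold and for the highest and lowest member of each role in E2-2. Genes of other lists were named when called at 2-fold against vector, up to 4 per list and comparison. MPO, CD34, CD79B, NKG7, MCM2 and CDKN1B, and the overlapping neighbours, were named after their values were seen. Of 245 genes in the lists, 4 were found through their identifier under an older symbol. Promoter windows are RefSeq's (GRCh38.p14). Protein sequences were not used here. Gene positions are those of the deposited table.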

Additional observations from a re-analysis of the deposited data

How the results depend on the processing

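Each of the 18 summary results (members called at 2-fold and at 1.5-fold and their median log2 fold, in 6 comparisons) was recomputed under 6 alternatives. Of the 108 values, 105 stayed within 1.5 times the count or, for a median, within 0.08 or 0.09 in log2. That margin is the typical counting half-width of 1 member, not of the median over members. For E2A against HEB it was 0.08, more than the median of 0.07, so a fall to 0 would not have shown there. Read minimums of 1 or 100 could not change a member value, since no member had fewer than 363 reads in a library. Each of those settings supplied 18 of the unchanged values. Calls from FPKM used the fold alone, without an interval. At 1.5-fold in E2-2 against vector, 20 members were called with upper quartile factors and 28 with total counts or FPKM, in place of 24. With upper quartile factors 23.6% of all genes were called there in either direction. In E2A against vector, 4 members were called with upper quartile factors in place of 6, where 13.4% of all genes were called in either direction. With upper quartile factors, 1 member was called at 2-fold in E2-2 against vector in place of 2: MYBL2 remained called and MKI67 did not. With total counts and with the authors' FPKM values, 6 members were called at 1.5-fold in E2-2 against HEB in place of 3, and AURKB was then also called at 2-fold in E2-2 against vector. Across all settings the members' median log2 fold was 0.49 to 0.60 in E2-2, 0.31 to 0.34 in E2A and 0.24 to 0.27 in HEB against vector, with medians over all genes of -0.09 to 0.02, -0.04 to 0.00 and -0.01 to 0.02. It was 0.20 to 0.26 for E2-2 against E2A, 0.31 to 0.40 for E2-2 against HEB and 0.07 to 0.09 for E2A against HEB. No paired analysis was possible because each group has 1 library and no labels share replicate numbers, and for the same reason no library could be left out. The spread between cultures is unknown. SPC24, the member with the widest interval against vector, had bounds that differed 1.34-fold.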
